A study of Mus musculus with 8 samples.

Results

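Brown adipose tissue (BAT) acts at a distance through proteins it secretes, often called batokines. A set of 10 such factors, taken by name, with a rule that uses no measured value, was followed in BAT transcriptomes: Nrg4, Fgf21, Bmp8b, Angptl2, Angptl4, Metrnl, Igf1, Cxcl14, Pltp and Enho. The set was nevertheless chosen with earlier results of these data known. All 10 were found by symbol among the 31053 Ensembl genes of the count table. The bulk RNA-seq series holds 4 WT and 4 Cd36KO libraries, all labelled as C57BL6/J and 8 weeks old, with no treatment given for either group. CD36 is a receptor for fatty acids and modified lipoproteins. By label the genotype is Cd36KO and no more, whereas the study attributes its BAT transcriptome to a myeloid-specific deletion (CD36 flox/flox crossed with Csf1r Cre, a driver active in macrophages and related cells), and for the age of those animals it gives the labelled one beside this transcriptome and a later one in its methods. Whether WT animals carried Cre or floxed alleles was not found in the sources used here.

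The secreted factors of brown fat differ in partner and target. NRG4 is an EGF-like ligand of ErbB receptors that reaches the liver, FGF21 is a hormone that needs the co-receptor beta-klotho, and IGF1 is a growth factor held by a family of binding proteins. ANGPTL4 blocks lipoprotein lipase, PLTP moves phospholipids between lipoproteins, and CXCL14 is a chemokine that draws in macrophages. The comparison asked whether the message of each factor differed between WT and Cd36KO tissue. In bulk tissue, fewer cells of a type and less RNA per cell cannot be told apart.

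Total counts ranged from 2679785 to 4097953 per library. Although the labels name the stromal vascular fraction as cell type, 6 pan-adipocyte markers summed to between 5038 and 11310 CPM (counts scaled to a common library total), and Ucp1 and Cidea were abundant, so adipocyte RNA was present throughout. The study describes its mice as male, but Xist had from 772 to 1588 counts in every library and 4 Y-linked genes together had 3 counts in all. Cd36 itself remained abundant in the libraries labelled Cd36KO, with a mean of 2087 ± 216 normalized counts where WT had 2918 ± 454 (SD, n = 4 each; log2 fold change -0.48, DESeq2 adjusted p = 0.0602). The groups did not overlap for Cd36, and its adjusted p was 0.0494 with TMM factors, 0.00656 without WT replicate 4 and above 0.05 under the other 13 alternatives, up to 0.344 in limma. Of all genes averaging 50 or more normalized counts, 10.9% had groups that did not overlap. A normalized count is a count divided by the size factor of its library. The WT replicate 1 library stood apart, with 16070 CPM of 10 skeletal muscle markers where the remaining 7 libraries had 10.4 to 2947. Its 8 white fat markers summed to 218 CPM. WT replicates 2 to 4 had 1270 to 1498 CPM of them and Cd36KO libraries 169 to 281.

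None of the 10 factors passed an adjusted p of 0.05 in the DESeq2 comparison of Cd36KO with WT, in which 2.95% of all genes tested passed (1.42% higher and 1.53% lower in Cd36KO). The edgeR and limma tests also called 0 factors after adjustment, where 0.143% and 0.0461% of all genes passed. Igf1 was the 1 factor with an unadjusted p under 0.05 in each of DESeq2, edgeR and limma, in which 9.76%, 16.1% and 11.5% of all genes had one. An adjusted p was given to 7 factors, of which 3 had a positive and 4 a negative log2 fold change. Their median log2 fold change was -0.017, and that of all genes with an adjusted p was -0.0088. Fgf21, Bmp8b and Enho received none, since their counts were too low. The 4 WT and 4 Cd36KO values overlapped for each of the 10 factors. For comparison, groups did not overlap in 10.9% of the genes that averaged 50 or more normalized counts, a level that 4 of the factors reached.

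**Figure D1:**
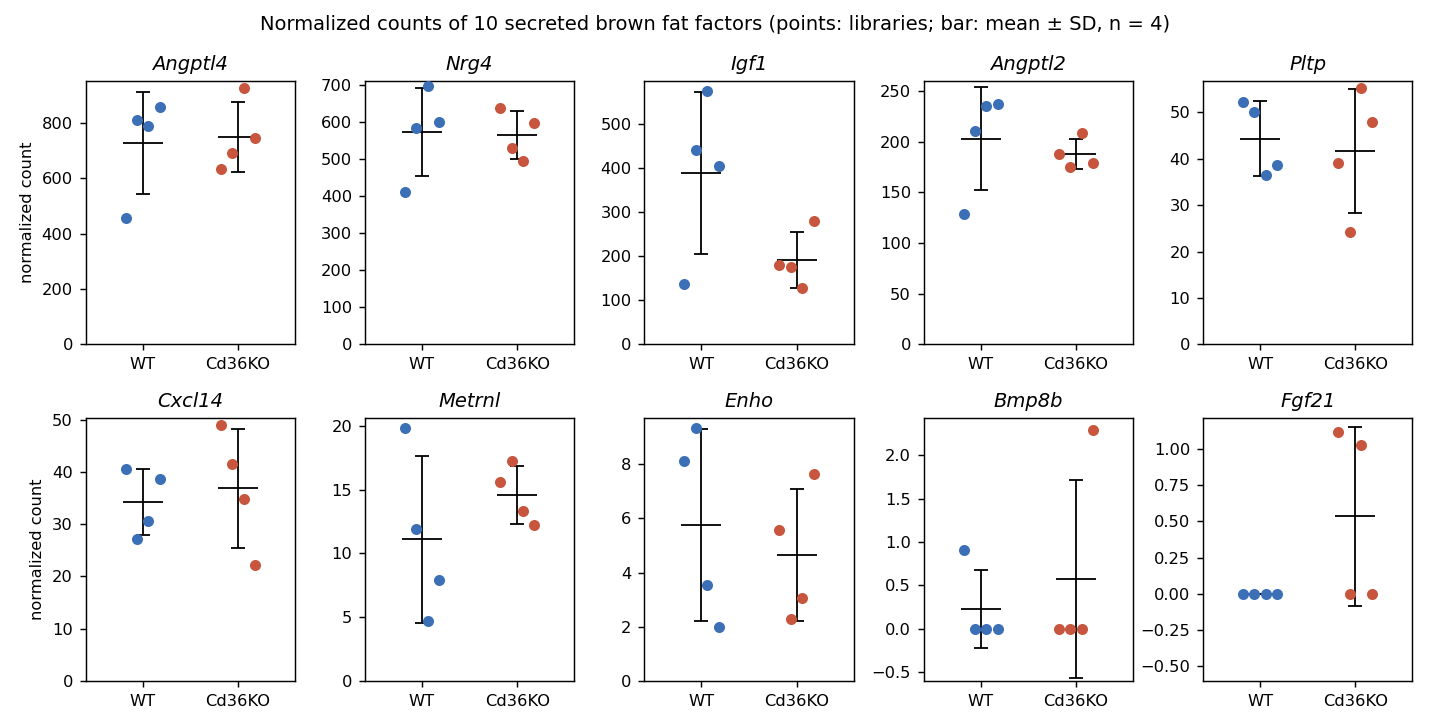
Normalized counts (y axis, linear) of the 10 factors in 4 WT and 4 Cd36KO libraries, with a point per library and bars for the mean ± SD. The groups overlap in every panel, and the low WT point of Igf1, at 136, is replicate 1.

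Igf1 (ENSMUSG00000020053, chromosome 10, 87858265 to 87937042 on the plus strand of build GRCm38, protein-coding) showed the largest difference among the factors with an adjusted p. WT replicates 1 to 4 had 136, 441, 576 and 406 normalized counts. The Cd36KO library without a replicate number had 179, and replicates 2, 3 and 4 had 176, 129 and 280. Thus 3 WT libraries lay above all Cd36KO libraries, while WT replicate 1 lay within the Cd36KO range. Group means were 390 ± 184 for WT and 191 ± 63.6 for Cd36KO (SD, n = 4 each). DESeq2 gave Igf1 a log2 fold change of -1.03 ± 0.35 (SE) and a 95% interval from -1.72 to -0.34, that is, 0.491 times the WT level with an interval from 0.304 to 0.792 times. The DESeq2 adjusted p was 0.0815, the edgeR adjusted p was 0.177, and the exact two-sided permutation p was 0.114, where this design can reach 0.0286. Without WT replicate 1 the log2 fold change of Igf1 was -1.31 with a DESeq2 adjusted p of 1.52e-05, and without Cd36KO replicate 4, the Cd36KO library with the most Igf1, it was -1.27 with an adjusted p of 0.0478. Without any other single library the adjusted p stayed above 0.05, up to 0.371 without WT replicate 3.

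**Figure D2:**
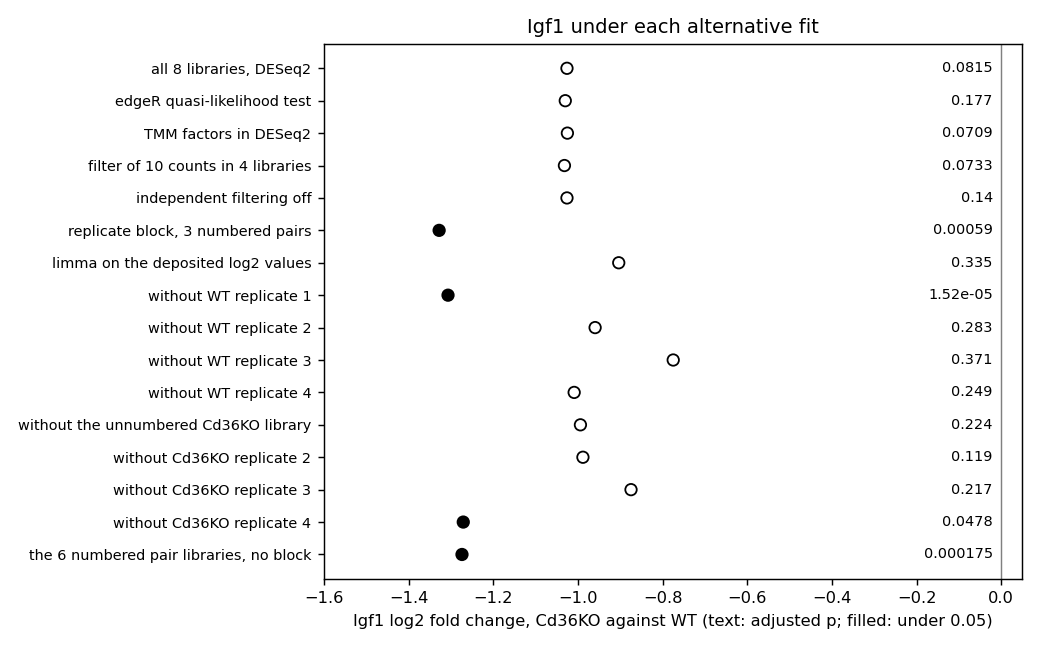
Log2 fold change of Igf1 (x axis) under each alternative fit (y axis), with the adjusted p written at the right and points filled where it is under 0.05. All values lie between -1.33 and -0.77, and the fits without WT replicate 1 or without Cd36KO replicate 4 are among those that pass.

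The low Igf1 of WT replicate 1 went with 4 abundant white fat markers below those of the other WT libraries, 2 of them within or below the Cd36KO range. Hoxc9 and Hoxa9 had at most 14 raw counts, and Hoxa9 was not lowest in that library. Retn, which encodes resistin, had 97.5 normalized counts in that library, whereas WT replicates 2 to 4 had 1226 to 1745 and Cd36KO libraries 146 to 521. For Nnat, which encodes neuronatin, these values were 377, 2144 to 3105 and 245 to 403. Hoxc8 and Lep, the leptin gene, lay between the groups in that library. Hoxc8 had 81.2 there, 150 to 304 in WT replicates 2 to 4 and 7.16 to 42.3 in Cd36KO, and Lep had 35.2, 118 to 150 and 11.5 to 28.2. Of the 8 white fat markers, Lep, Hoxc8 and Nnat passed the DESeq2 threshold, all lower in Cd36KO, and Hoxc10 and Tcf21 had no counts in any library. Igf1 did not follow these markers throughout, since Cd36KO replicate 4 had the lowest white fat sum, 169 CPM, and the highest Igf1 of its group. The 11 macrophage markers, another cell type that makes IGF1, ranged in summed level from 211 to 320 CPM (WT) and 202 to 281 CPM (Cd36KO), and of the 8 with an adjusted p, 3 had a positive and 5 a negative log2 fold change, with a median of -0.016. Cd163 passed, lower in Cd36KO, where 1.53% of all genes did. The 8 lipid-associated macrophage markers had 3 positive and 2 negative values (median 0.25), with 0 past the threshold. The 9 stromal progenitor markers reached 1552 to 2275 CPM (WT) and 945 to 1248 CPM (Cd36KO) in sum, with Gsn the 1 that passed, also lower. Pan-adipocyte markers were lower as well, at 7803 to 11310 CPM (WT) and 5038 to 7477 CPM (Cd36KO), with 0 of 6 past the threshold. The part of these cell types in the Igf1 values was not tested.

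Genes around IGF1 were taken from a list of 13 that holds the second ligand Igf2, the carrier proteins, the proteases that release IGF1 from them and a protease inhibitor. Of the 7 with an adjusted p, all had a negative log2 fold change, with a median of -0.76 against -0.0088 over all genes, and 1 passed the threshold, where 1.53% of all genes passed downwards. The gene that fell was Igfbp4, which encodes a carrier that restrains IGF1. Its WT values were 82.2, 275, 366 and 380 normalized counts for replicates 1 to 4. The unnumbered Cd36KO library had 136, and replicates 2 to 4 had 154, 104 and 90.0. As for Igf1, WT replicate 1 was the exception, here below all of Cd36KO. Igfbp4 had a log2 fold change of -1.19 ± 0.37 (SE; DESeq2 adjusted p = 0.0445). In edgeR the adjusted p of Igfbp4 was 0.148, and 6 of 8 fits that each left out a library lost the call, those without WT replicates 2, 3 or 4, the unnumbered Cd36KO library or Cd36KO replicates 3 or 4, with adjusted p from 0.0822 to 0.214.

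Other carriers did not pass with all 8 libraries. Igfbp6 did so, lower in Cd36KO, without the unnumbered Cd36KO library and in the 6 libraries that share a replicate number, and Igfbp5 did so without WT replicate 4 or without Cd36KO replicate 2. Over all libraries Igfbp6 averaged 33.5 ± 6.65 (WT) and 14.7 ± 7.82 (Cd36KO) normalized counts (SD, n = 4 each), with groups that did not overlap and a log2 fold change of -1.20 (DESeq2 adjusted p = 0.0891). Of genes averaging 50 or more normalized counts, a level Igfbp6 did not reach, 10.9% did not overlap. Igfbp5 had a log2 fold change of -0.76 (adjusted p = 0.130, DESeq2) and Igfbp7, the family member with low affinity for IGF1, one of -0.32 (adjusted p = 0.632, DESeq2). Htra1, a secreted protease that can cleave IGF binding proteins, had a log2 fold change of -0.77 (adjusted p = 0.233, DESeq2). Pappa, the protease of IGFBP4, averaged 11.2 ± 3.88 (WT) and 11.1 ± 4.82 (Cd36KO) normalized counts (SD, n = 4 each). Igfbp1 and Pappa2 had no counts. For the receptor Igf1r the means were 78.4 ± 13.1 and 65.4 ± 19.3 (SD, n = 4 each; log2 fold change -0.25), and the insulin receptor gene Insr had a log2 fold change of -0.47 (adjusted p = 0.205, DESeq2).

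**Figure D3:**
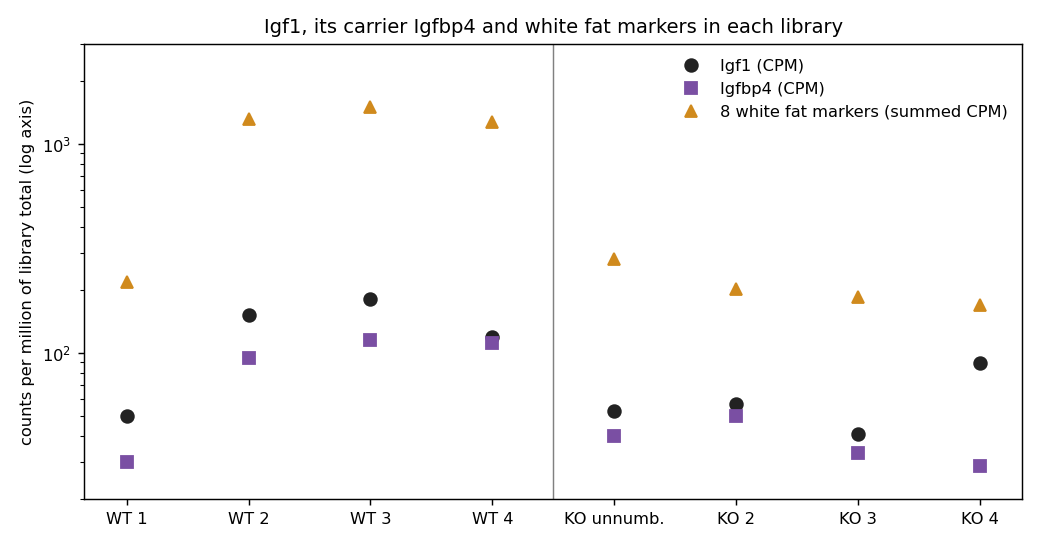
Igf1, Igfbp4 and the sum of 8 white fat markers in each library (x axis), in CPM of the library total on a log axis. WT replicate 1 sits with the Cd36KO libraries in all 3 series, and Cd36KO replicate 4 is high in Igf1 only.

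Nrg4 (ENSMUSG00000032311, chromosome 9, 55220222 to 55326844, minus strand) had the smallest difference of the tested factors. WT replicates 1 to 4 had 411, 584, 698 and 601 normalized counts, and Cd36KO libraries had 640 in the unnumbered library and 530, 496 and 598 in replicates 2 to 4. All 4 Cd36KO values lay within the WT range. With means of 573 ± 119 and 566 ± 64.8 (SD, n = 4 each), the log2 fold change was -0.017, with a 95% interval from -0.38 to 0.35, or 0.766 to 1.27 times the WT level (DESeq2 adjusted p = 0.981). The sign of so small a difference turned with the fit, and 5 of 15 alternatives gave a positive value, the highest 0.092, and the lowest of all was -0.21. In the same libraries Ucp1, the uncoupling protein, rose by a log2 fold change of 0.82 and Cidea by 0.97 (DESeq2 adjusted p = 0.00843 and 5.92e-06), while edgeR gave them adjusted p of 0.126 and 0.0748. The ErbB receptors that bind NRG4 had few counts, from 1 to 17 raw counts for Erbb3 and from 4 to 21 for Erbb4. Exons of genes on the opposite strand cover 545 of the 6075 exonic bases of Nrg4, and whether counting used strand is not stated.

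The 5′ regions of Igf1, the factor with the largest difference, and of Nrg4, the factor with the smallest, are shown as the annotated starts of these messages. They are the RefSeq windows of 250 bases before to 50 after a gene start on build GRCm38.p6, at chr10:87860861-87861160 on the plus strand and chr9:55283576-55283875 on the minus strand, each inside the span of its gene. Capitals mark AGGTCA (a core motif of nuclear receptor binding) and CCAAT, searched on both strands.
Igf1: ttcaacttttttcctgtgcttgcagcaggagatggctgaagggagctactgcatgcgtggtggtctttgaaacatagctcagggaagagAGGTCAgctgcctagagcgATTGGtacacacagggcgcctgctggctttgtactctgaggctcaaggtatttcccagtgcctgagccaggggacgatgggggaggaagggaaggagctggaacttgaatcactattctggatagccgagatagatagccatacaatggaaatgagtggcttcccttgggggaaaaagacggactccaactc
Nrg4: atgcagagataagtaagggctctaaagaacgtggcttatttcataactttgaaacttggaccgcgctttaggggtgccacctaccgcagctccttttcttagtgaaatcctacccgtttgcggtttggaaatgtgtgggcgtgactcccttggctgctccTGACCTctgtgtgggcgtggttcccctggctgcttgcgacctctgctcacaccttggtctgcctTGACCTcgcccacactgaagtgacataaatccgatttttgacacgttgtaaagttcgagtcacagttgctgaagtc
AGGTCA or its reverse complement was found in 16.3% of 32817 promoters of this length, and 3 of the 8 factors with an entry held it, Nrg4, Igf1 and Cxcl14. CCAAT was found in 37.4% of promoters and in the windows of Bmp8b, Igf1 and Pltp. The cAMP response element TGACGTCA was in 1.79% of promoters and a direct-repeat PPAR element in 0.0396%, searched on both strands, and none of the 8 windows held either. A match is a description of letters only. Angptl4 and Enho had no entry.

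Neither angiopoietin-like factor passed. Angptl4 (ENSMUSG00000002289, chromosome 17, 33773750 to 33781830, minus strand), whose product inhibits lipoprotein lipase, had 455, 810, 788 and 858 normalized counts in the WT libraries. The unnumbered Cd36KO library had 635, and replicates 2 to 4 had 692, 929 and 747. WT replicate 1 was the lowest of the 8 and Cd36KO replicate 3 the highest. The log2 fold change was 0.045, with a 95% interval from -0.38 to 0.47 (DESeq2 adjusted p = 0.956), and it was -0.13 without WT replicate 1 and -0.071 without Cd36KO replicate 3. Angptl2 (ENSMUSG00000004105, chromosome 2, 33216069 to 33247717, plus strand), which encodes a pro-inflammatory relative, had 129, 211, 235 and 237 normalized counts in WT. Cd36KO libraries lay closer together, at 188, 175, 209 and 179 with the unnumbered library first, all within the WT range. Its log2 fold change was -0.11, with an interval from -0.54 to 0.32 (DESeq2 adjusted p = 0.873), and it was negative under all 15 alternatives.

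Around ANGPTL4, the list of 14 genes of the lipoprotein lipase axis held 8 with an adjusted p, of which 0 passed and 6 had a positive log2 fold change (median 0.15). An unadjusted DESeq2 p under 0.05 was found for 2 of the 13 with any count, Furin and Abca1, where 9.76% of all genes had one. Lpl, the lipase itself, averaged 12500 ± 3276 (WT) and 10040 ± 1155 (Cd36KO) normalized counts (SD, n = 4 each; log2 fold change -0.32, DESeq2 adjusted p = 0.479). Gpihbp1, which carries the lipase across capillary endothelium, had a log2 fold change of 0.30, and the maturation factor Lmf1 one of 0.13. Angptl8, a partner of the angiopoietin-like inhibitors, had 52.1 ± 26.4 and 85.1 ± 26.8 normalized counts (SD, n = 4 each; DESeq2 adjusted p = 0.341). Furin, a protease that cleaves angiopoietin-like proteins and the lipase, had a log2 fold change of 0.55 (adjusted p = 0.139, DESeq2).

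Pltp and Cxcl14 were measured at lower levels. Pltp (ENSMUSG00000017754, chromosome 2, 164839518 to 164857711, minus strand) had 52.4, 50.1, 36.5 and 38.6 normalized counts in WT and 39.0, 24.2, 55.2 and 48.1 in Cd36KO, unnumbered library first. Both the lowest and the highest library were Cd36KO, and the log2 fold change was -0.090, with an interval from -0.71 to 0.53 (DESeq2 adjusted p = 0.937). Opposite-strand exons cover 495 of its 2562 exonic bases. Abca1, which loads phospholipid and cholesterol onto the particles that PLTP remodels, had 144 ± 44.1 and 86.6 ± 13.3 normalized counts (SD, n = 4 each; log2 fold change -0.72, DESeq2 adjusted p = 0.111). Cxcl14 (ENSMUSG00000021508, chromosome 13, 56288643 to 56296551, minus strand) had 40.6, 27.2, 30.6 and 38.6 in WT and 49.0, 41.4, 34.8 and 22.1 in Cd36KO, in the same order. Here too the extremes were both Cd36KO libraries. The log2 fold change of Cxcl14 was 0.091, with an interval from -0.57 to 0.75 (DESeq2 adjusted p = 0.939). Cxcr4, proposed as a binding partner of CXCL14, had from 1 to 12 raw counts.

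**Figure D4:**
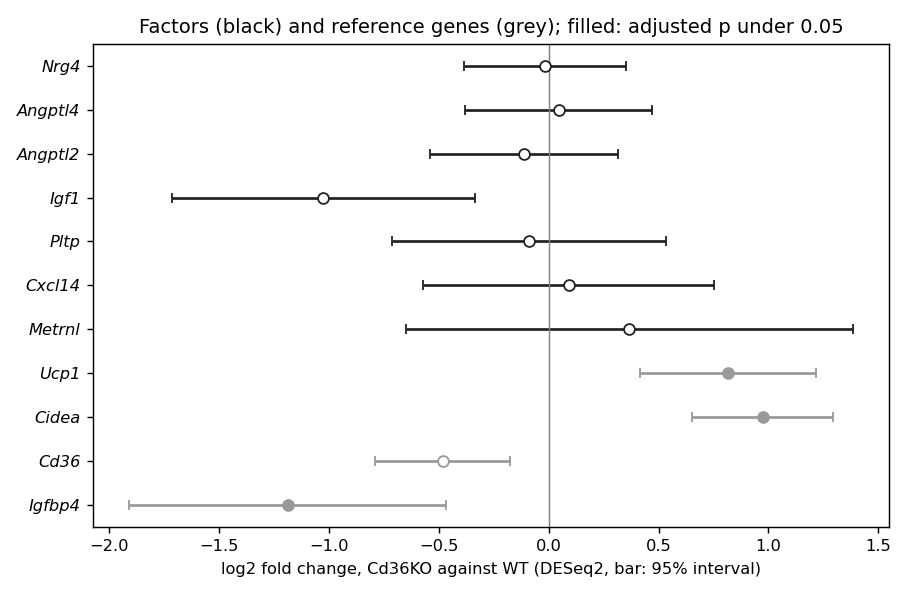
DESeq2 log2 fold changes of Cd36KO against WT (x axis) with 95% intervals for the 7 factors with an adjusted p (black) and for Ucp1, Cidea, Cd36 and Igfbp4 (grey), filled where the adjusted p is under 0.05. Of the black intervals only that of Igf1 leaves out 0, and none of the black points is filled.

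The other 4 factors were at or near the limit of detection. Metrnl (ENSMUSG00000039208, chromosome 11, 121701544 to 121716306), which encodes meteorin-like, had 22, 14, 4 and 8 raw counts in WT and 14, 15, 13 and 16 in Cd36KO, unnumbered library first. WT spread on both sides of the narrow Cd36KO range, and the log2 fold change of 0.37 had an interval from -0.65 to 1.38 (DESeq2 adjusted p = 0.807). Enho (ENSMUSG00000028445, chromosome 4, 41638144 to 41640324), which encodes the adropin precursor, had 2 to 11 raw counts per WT library and 2 to 10 per Cd36KO library, and its interval, from -1.84 to 1.24 in log2 fold change, leaves even a large difference undetectable at this depth. Bmp8b (ENSMUSG00000002384, chromosome 4, 123105165 to 123132099), a thermogenic ligand of the TGF-beta superfamily, had 1 raw count in WT replicate 1, 3 in Cd36KO replicate 4 and 0 in the other 6 libraries. Its close relative Bmp8a, with which it may share reads, had at most 5. Fgf21 (ENSMUSG00000030827, chromosome 7, 45613886 to 45615490) had 1 raw count in the unnumbered Cd36KO library, 1 in Cd36KO replicate 3 and 0 elsewhere. A count of 0 allows up to 3 counts, or 0.869 to 1.105 CPM in the WT libraries, counting error only, so no fold change of Bmp8b or Fgf21 could be measured.

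Receptor messages were read from a list of 25 genes. Of these, 13 had an adjusted p, 0 passed, and 3 of the 25 had an unadjusted DESeq2 p under 0.05, a share near the 9.76% of all genes. Their median log2 fold change was -0.32, and 9 of the 13 values were negative. Klb, the beta-klotho co-receptor of FGF21, averaged 51.6 ± 19.9 (WT) and 55.0 ± 21.6 (Cd36KO) normalized counts (SD, n = 4 each), and its partner Fgfr1 had 98.2 ± 19.5 and 71.6 ± 11.5 (log2 fold change -0.45, DESeq2 adjusted p = 0.336). Itgb1, an integrin subunit of the ANGPTL2 receptor, had a log2 fold change of -0.32 (DESeq2 adjusted p = 0.245). Bmpr2, a type II receptor for BMP ligands, was the 1 gene of the 25 whose groups did not overlap, where 10.9% of genes averaging 50 or more normalized counts did not, at 149 ± 10.1 and 186 ± 11.9 normalized counts (log2 fold change 0.32, DESeq2 adjusted p = 0.335). Kit, reported as a receptor of METRNL, had 8 to 35 raw counts, and Gpr19, proposed for adropin, had 0 to 6.

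Levels between factors were compared per length, as CPM per kilobase of exon. If the libraries were read from one end of the transcript, which is not stated, this scale does not apply. In WT the order was Angptl4 (66.5 ± 13.5), Nrg4 (30.6 ± 4.86), Igf1 (12.6 ± 5.66), Angptl2 (10.4 ± 1.97), Cxcl14 (6.16 ± 1.40), Pltp (5.76 ± 1.57), Metrnl (2.38 ± 1.62) and Enho (1.55 ± 1.04; SD, n = 4 each), with Bmp8b and Fgf21 last. The lowest Angptl4 value lay above the highest Nrg4 value, and the lowest Nrg4 value above the highest Igf1 value. From Igf1 to Enho each neighbour overlapped the next. On CPM without length, Pltp came before Cxcl14, and Angptl4 overlapped Nrg4 and Nrg4 overlapped Igf1, so these separations hold per length only.

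The genes whose pattern over the 8 libraries was most like that of a factor were found among 5527 or 5528 genes averaging 50 or more normalized counts, by the root mean square distance of centred log2 values. Closest to Igf1 were Cdk14, Lgals12 and B3galt2, at distances of 0.246, 0.273 and 0.287, where Igf1 itself deviated by 0.772 from its mean. Lgals12 encodes a galectin enriched in adipocytes. Nearest to Angptl4 were Ivns1abp, Rnaseh2c and Cfl1, at 0.118, 0.121 and 0.123. Cxcl14 was closest to Arhgef18, Il4ra and Stat3, at 0.146, 0.153 and 0.156. The ranking over 8 libraries is a description only.

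Ucp1 and Cidea passed the threshold and the factors did not, so the log2 ratio of the 4 abundant factors to each of these genes was compared between groups, a choice made after the data were seen (8 ratios in all, with p-values not adjusted). Relative to Cidea, Nrg4 was at -3.89 ± 0.32 (WT) and -4.87 ± 0.09 (Cd36KO; SD, n = 4 each), a difference of -0.98 with groups that did not overlap (exact permutation test, two-sided, p = 0.0286, which is the minimum here). Angptl4, Angptl2 and Igf1 relative to Cidea differed by -0.91, -1.06 and -1.89, each with the same exact p. Ratios to Cidea did not overlap between groups for 71.9% of the genes averaging 50 or more normalized counts, so the factors shared this with most genes. Cidea and Ucp1 were chosen because they were higher in Cd36KO in these data. A factor without a difference then gives a negative ratio difference, so the p-values of these ratios do not test the factors themselves. Relative to Ucp1 the difference was -0.82 for Nrg4 (exact permutation p = 0.0571), -0.75 for Angptl4 (exact permutation p = 0.114), -0.90 for Angptl2 (exact permutation p = 0.0286) and -1.73 for Igf1 (exact permutation p = 0.0571), and 37.3% of genes did not overlap. Leaving out any library kept the negative sign of these 4 differences.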

How the data were processed

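The labels and the study's methods gave the steps before deposit. Per the methods, the authors used bbduk for trimming, STAR for alignment to mm10 and HTSeq-count for gene counts, on single-end reads of a digital mRNA-seq service. The submitters' processing notes name Trimmomatic and HISAT2, which the study also lists among its software, and which aligner made this table was not settled. Both sources name DESeq2. The deposited count table holds unnormalized counts, all whole numbers, for each gene. The authors also deposited log2 values, which equalled log2(count / size factor + 1) to within 6e-14. The annotation release, strand setting and molecular identifiers are not given in the sources used here. The authors' count column of 1 Cd36KO library has no replicate number, and it was treated as a member of its group only.

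Symbols and coordinates came from GENCODE M21 (GRCm38, the authors' build), which matched 30934 of 31053 identifiers. Coordinates are 1-based. Genotype was tested with DESeq2, the tool that the study's methods name, here in version 1.42.0 (Wald test, unshrunken fold changes, R 4.3.3), over all genes with Benjamini-Hochberg adjustment at 0.05. Intervals are 1.96 standard errors on either side. Single factors were also tested by an exact two-sided permutation test of log2(normalized count + 1) over 70 arrangements (SciPy 1.17.1). The study describes its groups as separate mice, which the labels do not state. Alternatives were edgeR 4.0.16, limma 3.58.1 on the log2 values, TMM factors, a filter of 10 counts in 4 libraries, no independent filtering, the replicate block and leaving out each library. In simulated data with known changes the fits recovered most changed genes, but more of the DESeq2 and edgeR calls were false than the threshold of 0.05 allows. Figures used matplotlib 3.10.9.

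The 10 factors, the gene lists and the tests were chosen with earlier results of these data known. The rule named all 10 factors, Cd36, related genes that passed or are direct partners of a factor, and the 3 genes most alike for Igf1, Angptl4, Pltp and Cxcl14 and for any factor that passed. The genes most alike to Pltp are not reported here. Other genes were named after their values were seen. Of 86 related genes in 4 lists, 46 had an adjusted p.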

Additional observations from a re-analysis of the deposited data

Results flagged for a closer look

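Each factor was searched in each group of 4 libraries for a library far from the rest by Dixon's criterion, which chance meets in about 1 of 20 groups. Angptl4 in WT replicate 1 had 455 normalized counts, where WT replicates 2 to 4 had 788 to 858, and the gap was 0.866 of the range on the log2 scale. The criterion was also met by Bmp8b, whose single nonzero library in each group (WT replicate 1 with 0.903 and Cd36KO replicate 4 with 2.29 normalized counts) gave a gap of 1 times the range. With 3 libraries at 0 this gap is fixed by construction, and it rests on 1 and 3 raw counts, so Angptl4 is the 1 informative case, no more than chance gives.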

How the results depend on the processing

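The signs of Igf1, Angptl2, Metrnl, Cd36 and Igfbp4 were kept under all alternatives that gave them a value. Over all genes, 284 passed in DESeq2, 14 in edgeR, 8 in limma and 171 without independent filtering, and 69 to 507 when a library was left out. The split of 137 higher and 147 lower was not stable. It was 32 and 187 under the replicate block, and 48 and 214 in the same 6 libraries without the block. It was 20 and 93 without the unnumbered Cd36KO library and 328 and 179 without WT replicate 4. The cause of these changes was not tested. Of the factors, 0 passed, and 1, Igf1, passed with the replicate block (log2 fold change -1.33, adjusted p = 0.00059, DESeq2) and in the same 6 libraries without the block (-1.27, adjusted p = 0.000175, DESeq2, a fit added after the data were seen). Both of these lack WT replicate 1. Leaving out a library gave 0 to 1 factors and an Igf1 log2 fold change from -1.31 to -0.77. Over all alternatives the adjusted p of Igf1 ranged from 1.52e-05 to 0.371. Same-numbered libraries share only a number: the correlations of their deviations were -0.127, 0.422 and 0.141 over 5528 genes. Of the related genes, 1 passed, against 0 in edgeR, limma and without independent filtering, 2 with the count filter, 4 with the replicate block, 7 in the 6 libraries without it, and 0 to 5 when a library was left out. Without WT replicate 1 those 5 were Abca1, Fgf10, Htra1, Igfbp4 and Lpl, all lower. Over all genes that fit also leaned downwards, with 109 called higher and 236 lower. Furin (higher) passed without WT replicate 4 or Cd36KO replicate 2, and Vegfa (lower) without WT replicate 4. Fgf10 (lower) also passed with the count filter, with the replicate block and in the 6 libraries, Rbp4 (lower) in the last 2 of these, and S100b (higher) with the block but not in the same 6 libraries without it.

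Log2 fold changes near 0 turned sign. Nrg4 was at 0.00032 in limma and from -0.15 to 0.092 over the left-out libraries, and its mean log2 difference was -0.061 on CPM. Angptl4 was at -0.062 with the replicate block, -0.051 in the 6 libraries without it and -0.13 to 0.13 over the left-out libraries. Pltp was at 0.032 in the 6 libraries and from -0.25 to 0.093, Cxcl14 from -0.077 to 0.28, and Enho from -0.67 to 0.041 over the left-out libraries. The fitted value of Bmp8b ran from -0.55 to 1.69 over the left-out libraries, but it rests on 4 raw counts in all and is not a measured fold change. At 2679785 to 4097953 counts per library, differences in Fgf21, Bmp8b and Enho could not be measured.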

Other observations

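Other secreted factors of thermogenic fat were read from a list of 34 genes. Of the 18 with an adjusted p, 0 passed in DESeq2 with all 8 libraries and no count filter, 14 had a negative log2 fold change and the median was -0.11. Of the 33 with any count, 5 had an unadjusted DESeq2 p under 0.05, where 9.76% of all genes had one. These were Fgf10, Fgf2, S100b, Vegfa and Epdr1, the last with 0 to 27 raw counts and no adjusted p. Fgf10, a mesenchymal growth factor for fat precursors, averaged 77.1 ± 38.0 (WT) and 34.5 ± 6.29 (Cd36KO) normalized counts (SD, n = 4 each; log2 fold change -1.17, DESeq2 adjusted p = 0.0674). Fgf2 had 21.3 ± 7.86 and 8.16 ± 2.41 with groups that did not overlap (DESeq2 adjusted p = 0.117). Edn1, with 1 to 11 raw counts, did not overlap either. Of genes averaging 50 or more normalized counts, a level that neither reached, 10.9% did not overlap. S100b, which encodes a calcium-binding protein released by brown adipocytes that favours sympathetic innervation, had a log2 fold change of 0.65 (adjusted p = 0.172, DESeq2). Vegfa, the angiogenic factor, had a log2 fold change of -0.54 (adjusted p = 0.271, DESeq2) and Vegfb one of 0.32 (adjusted p = 0.408, DESeq2). Fgf10, Fgf2, Edn1, Epdr1, S100b, Vegfa and Vegfb were named after their values were seen.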
